A study of Mus musculus with 15 samples.

Results

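The genes described here are 48 genes of the interstitial extracellular matrix and of collagen processing. They were chosen as a list of names, with earlier results of these data known, and matched to the gene symbols of the deposited data. They were measured by 3′ end RNA sequencing in 21EM15 cells, an immortalized mouse lens epithelial line. Of the 48 genes, 43 were found among the 11677 genes listed for the cultures and 42 among the 11299 listed for the microdissected regions, and all 42 were among the 43. *Lum*, *Fmod*, *Eln*, *Fbln1* and *Thbs2* were listed in neither, and *Col1a2* was listed for the cultures only. The cultures were 4 samples of cells grown as a monolayer (2D) and 4 samples of spheroids (3D), each 3D sample being a pool of 60 spheroids grown for 10 days in non-adherent wells. The regions were 4 samples of the internal part and 3 samples of the external part of such spheroids. They were cut out by laser capture microdissection from frozen sections of 120 spheroids per replicate. The external group was selected on expression, since the authors had set aside a further external sample that lay apart from the others in a principal component analysis, and the spread among external samples and the p-values between regions rest on that selection. All samples are labelled wild type, all come from this single line, no other cell type was added and no treatment is named. The 2D cultures were harvested from subconfluent dishes, so that culture time and geometry cannot be told apart in the first comparison. RNA of the regions was extracted with another kit than RNA of the cultures, and the values were scaled within each of the 2 data sets, so all tests were made within a data set.

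The interstitial matrix is a network of secreted proteins around cells. Fibrillar collagens assemble as triple helices, are trimmed outside the cell and are then joined by covalent crosslinks. Small leucine-rich proteoglycans such as decorin and biglycan bind collagen fibrils and regulate their diameter. Fibrillins form microfibrils, with which latent TGF-β binding proteins and fibulins associate. In the eye, microfibrils make up the zonule that suspends the lens. Lens epithelial cells normally rest on a basement membrane, the lens capsule, and interstitial collagens and periostin are known from lens epithelial cells that have undergone an epithelial to mesenchymal transition, as in fibrotic cataract. The values below are log2 CPM, the log2 of read counts scaled to library size, for each sample. Because each transcript gives reads from its 3′ end only, a long transcript gives no more reads per molecule than a short one. Other differences between genes remain, such as reads lost where a 3′ end is shared with other genes. Rankings of level between genes are therefore approximate. A gene is said to be called when limma gave a Benjamini-Hochberg adjusted p under 0.01 over all genes of the data set and an absolute log2 fold change over 1.

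The samples held between 4044230 and 11702504 counted reads. On the library scaling of the deposited values, which differs from these totals, 3 reads corresponded to between 0.248 and 0.802 CPM. The 2D replicate 3 stood apart from the other cultures: 190 of the listed genes had no read in it, while the remaining 2D samples had 21 to 68 such genes and the 3D samples 22 to 34. Of 9 lens epithelial markers, 6 were listed in both data sets (among them *Pax6*, *Six3* and *Cryab*), while *Foxe3*, *Cdh1* and *Cryaa* were not. Their sum ranged from 3948 to 5665 CPM in 3D against 1568 to 1957 CPM in 2D, and from 11282 to 12182 CPM in the internal against 4932 to 5860 CPM in the external region, and most of these sums in 3D and in the regions was *Aqp1*, which was called higher in 3D (log2 fold change 2.34) and in the internal region (1.28). The other 5 markers were not called, with log2 fold changes from -0.44 to 1.91 in 3D and from -0.23 to 0.65 in the internal region. The paper describes the *Cryab* protein as a fibre cell component and found PAX6 protein around the core. This list therefore does not mark epithelium alone. Of 11 lens fibre markers, 1 was listed in the cultures (*Prox1*, log2 fold change 2.84, not called, with every 3D sample above every 2D sample) and 3 in the regions, where *Prox1* and *Hsf4* were called higher in the internal region. No endothelial marker of 6 was listed. Of 7 myofibroblast markers, 4 were listed in the cultures, where their sum ranged from 1094 to 1490 CPM in 3D and from 797 to 3944 CPM in 2D, and 2 in the regions, where it ranged from 211 to 235 CPM in the internal and from 643 to 844 CPM in the external samples. Of these, *Pdgfrb* was called higher in 3D (log2 fold change 1.03, adjusted p = 0.00526) while *Acta2* (-0.46), *Tagln* (-0.74) and *Actg2* (-3.27, adjusted p = 0.0273, without overlap) had negative values that were not called, and between the regions *Acta2* was called lower in the internal region (-2.56, adjusted p = 5.53e-11) while *Pdgfrb* had a log2 fold change of 0.87 without overlap (adjusted p = 0.00102). Of 5 proliferation genes, 4 were called lower in 3D and 5 lower in the internal region. The 7 listed mitochondrially encoded genes summed to 40440 to 61450 CPM in 3D against 21980 to 36477 CPM in 2D, and to 52802 to 67686 CPM in the internal against 26582 to 38926 CPM in the external region. The part of these shifts in the differences described below was not tested.

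In the 3D cultures, 5 of the 43 genes were called higher than in 2D (11.6%, against 2.92% of all genes): *Dcn*, *Postn*, *Col3a1*, *Bgn* and *Gpc1*. They encode decorin, periostin, the chain of type III collagen, biglycan and glypican-1. No member was called lower by limma or by limma-voom on the recovered reads (1.51% of all genes were by limma), and 2 members, *Vcan* and *Col1a2*, had a negative log2 fold change with an unadjusted p under 0.05. The log2 fold change was positive in 39 of 43 members (90.7%, against 47.8% of all genes), with a median of 0.62 against -0.03 over all genes. In 16 members every 3D sample lay above every 2D sample (12% of all genes did so), and in 2 members every 3D sample lay below (12% of all genes). Without the 2D replicate 3, 38 of 43 were positive, the median was 0.54 and 6 members were called higher. Without the 3D replicate 3 or the 3D replicate 4, 38 of 43 were positive and 1 member, *Postn*, was called. As in any bulk RNA measurement, fewer cells that express a gene and less of its RNA per cell cannot be told apart.

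Between the regions the same genes divided. *Postn*, *Col3a1* and *Col6a1* were called higher in the internal region (7.14% of the 42 members, against 3.27% of all genes). *Col1a1*, *Col11a1*, *Ltbp2*, *Tnc* and *Lox* were called higher in the external region (11.9% of the members, against 4.35% of all genes). The log2 fold change, internal minus external, was positive in 22 of 42 members (52.4%, against 52.9% of all genes), and its median was 0.04 in the members and 0.04 over all genes. The groups did not overlap in 10 members that were higher in the internal region (13.5% of all genes) and in 11 that were higher in the external region (15.4% of all genes).

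**Figure D1:**
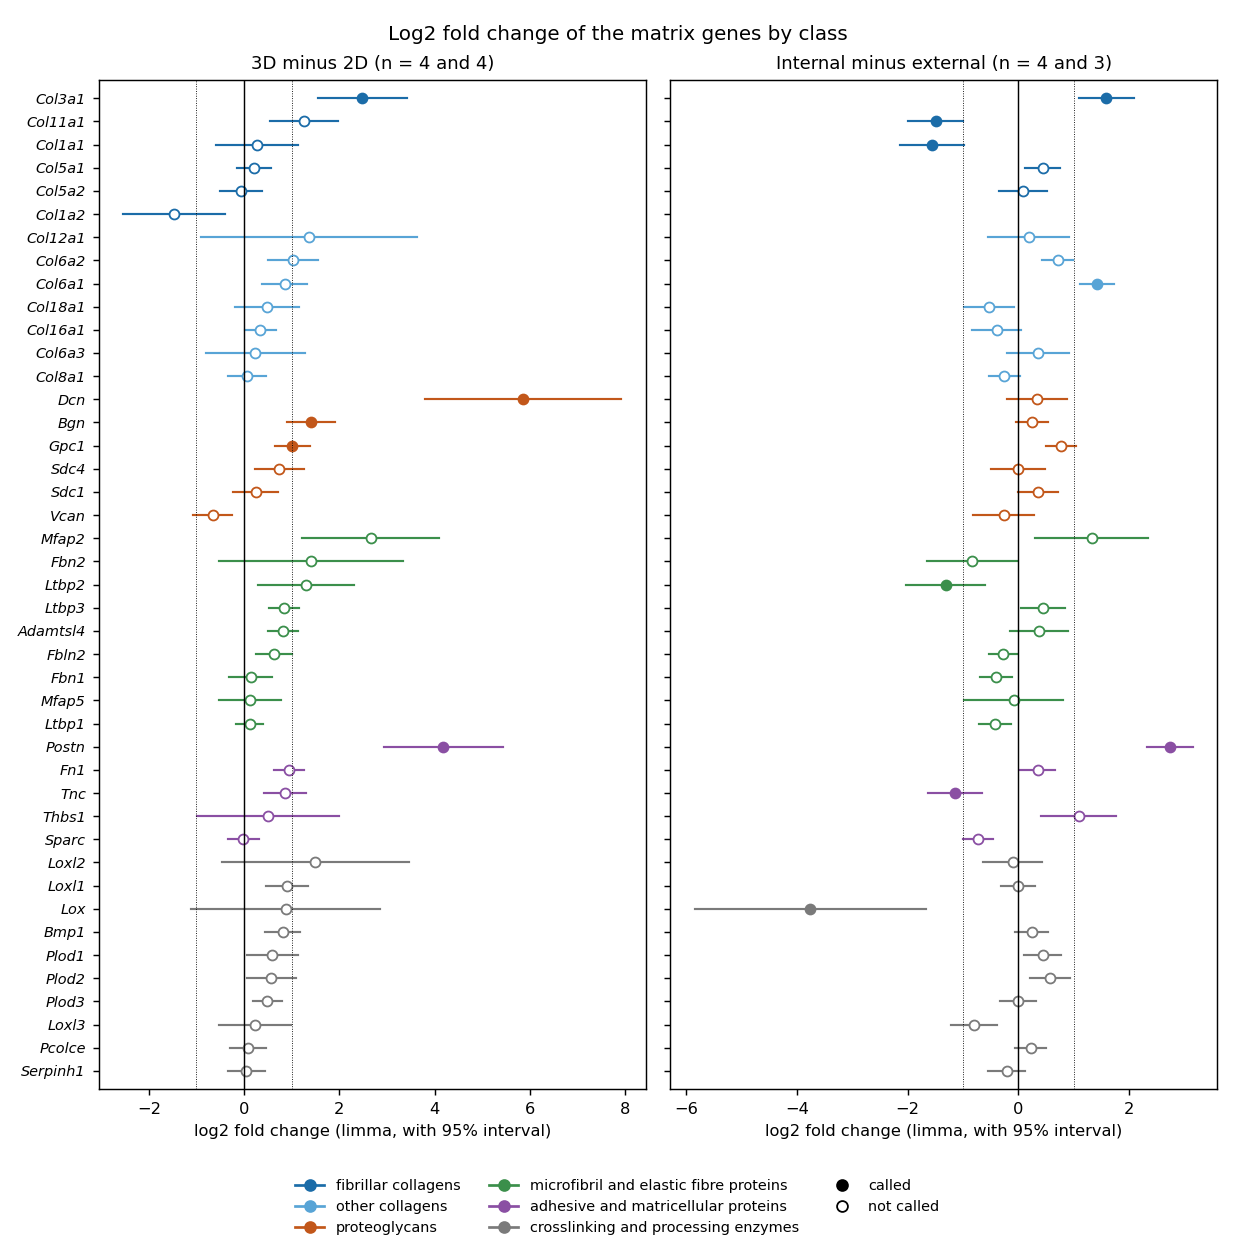
Log2 fold change of each gene in 3D minus 2D (left, 43 genes) and in the internal minus the external region (right, 42 genes), with 95% intervals from limma, coloured by class. Filled points are called genes, 5 on the left and 8 on the right, and the dotted lines mark a log2 fold change of 1 in either direction; most points of the left panel lie right of 0, while those of the right panel fall on both sides.

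Upstream sequences from the RefSeq promoter table are shown for 3 of the genes called higher in 3D and for *Col11a1* and *Tnc*, called higher in the external region. These calls come from different comparisons. *Col11a1* and *Tnc* also had positive log2 fold changes in 3D (1.25 and 0.87, not called), and *Bgn* was not called between the regions (0.24). Each is the run of 200 bases just upstream of the annotated start, 5′ to 3′ on the strand of the gene, on GRCm38.p6. The windows are chr3:54360907-54361106 (plus strand) for *Postn*, chr1:45311338-45311537 (plus) for *Col3a1*, chrX:73483401-73483600 (plus) for *Bgn*, chr3:114030340-114030539 (plus) for *Col11a1* and chr4:64047016-64047215 (minus) for *Tnc*. Capitals mark matches, on either strand, to 6 short motifs: TATAAA (the TATA box), CCAAT (the box of that name), GGGCGG (the GC box), TGANTCA (AP-1), GGAATG (TEAD) and ACGTG (core of the hypoxia response element).
Postn: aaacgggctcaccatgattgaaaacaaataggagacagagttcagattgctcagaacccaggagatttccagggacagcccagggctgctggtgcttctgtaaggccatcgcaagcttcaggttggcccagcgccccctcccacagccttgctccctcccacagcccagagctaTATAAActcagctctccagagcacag
Col3a1: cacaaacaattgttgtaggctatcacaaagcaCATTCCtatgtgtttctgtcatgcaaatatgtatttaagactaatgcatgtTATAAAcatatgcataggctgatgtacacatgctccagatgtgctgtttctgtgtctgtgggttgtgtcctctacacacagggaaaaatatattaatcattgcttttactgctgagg
Bgn: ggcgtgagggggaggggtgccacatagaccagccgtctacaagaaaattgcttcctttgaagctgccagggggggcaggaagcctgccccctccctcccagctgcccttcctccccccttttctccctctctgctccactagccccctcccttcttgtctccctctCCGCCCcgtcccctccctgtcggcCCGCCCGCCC
Col11a1: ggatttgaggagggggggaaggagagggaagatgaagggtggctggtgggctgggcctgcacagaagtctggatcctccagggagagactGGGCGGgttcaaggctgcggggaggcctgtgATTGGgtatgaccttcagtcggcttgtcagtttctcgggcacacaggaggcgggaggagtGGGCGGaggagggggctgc
Tnc: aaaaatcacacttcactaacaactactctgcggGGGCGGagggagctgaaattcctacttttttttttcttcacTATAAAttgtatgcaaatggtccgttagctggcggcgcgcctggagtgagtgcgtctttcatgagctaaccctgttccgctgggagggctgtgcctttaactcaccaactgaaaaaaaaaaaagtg
The TATAAA letters of *Postn* began 26 bases upstream of the start, those of *Col3a1* 117 bases and those of *Tnc* 126 bases upstream. *Bgn* held the GC box letters 3 times, 2 of them overlapping and all within 34 bases of the start, and *Col11a1* held them 2 times. Of the 43 members, 28 had an entry in the table. TATAAA was found in 3 of these 28 windows (9.96% of all 32851 windows of the table), CCAAT in 7 (29.3%), GGGCGG in 18 (31.0%), TGANTCA in 1 (5.48%), GGAATG in 3 (10.1%) and ACGTG in 3 (14.0%). The single TGANTCA match lay 90 bases upstream of *Col6a1*. These matches describe letters only, and no binding was measured.

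Fibrillar collagens form the main load-bearing fibrils of connective tissue. *Col3a1* encodes the only chain of type III collagen, which co-assembles with type I collagen in extensible tissues (chr1:45311538-45349706, plus strand). In log2 CPM it measured 5.98, 4.33, 4.15 and 4.83 in 2D replicates 1 to 4 and 6.90, 6.53, 7.77 and 8.04 in 3D replicates 1 to 4. All 3D samples were above all 2D samples, and 3D replicates 3 and 4 were the highest. The log2 fold change was 2.49 ± 0.42 (SE, n = 4 and 4, adjusted p = 0.00384). In the regions the internal samples measured 8.01, 7.88, 7.42 and 7.49 and the external samples 6.96, 5.47 and 5.89. Again the groups did not overlap, and the log2 fold change was 1.59 ± 0.24 (n = 4 and 3, adjusted p = 3.68e-05).

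*Col5a2*, which encodes a chain of the fibril-nucleating type V collagen, lies next to *Col3a1* on the same chromosome, 24614 bases away with its 3′ end towards that of *Col3a1* and with no protein-coding gene between them. Its log2 fold change was -0.06 (95% interval -0.50 to 0.37) in 3D and 0.08 (-0.36 to 0.51) in the internal region, both groups overlapping in each case. Its partner *Col5a1* had the highest level of the class in both data sets, at 7.28, 7.17, 7.38 and 7.81 in 2D and 7.57, 7.35, 7.78 and 7.74 in 3D. In the regions it measured 7.5, 7.80, 8.06 and 7.88 in the internal and 7.54, 7.29 and 7.28 in the external samples. The 2 groups overlapped in each data set, and the log2 fold changes of 0.20 and 0.44 were not called (adjusted p = 0.411 and 0.0449).

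*Col1a1* (chr11:94936224-94953042) and *Col1a2* encode the 2 chains of type I collagen, which join in one triple helix. In the 2D samples *Col1a1* measured 6.61, 6.69, 5.32 and 4.77 log2 CPM and in the 3D samples 5.99, 6.31, 5.76 and 6.38. The 3D values lay inside the 2D range (log2 fold change 0.27, 95% interval -0.60 to 1.13, adjusted p = 0.671). In the regions *Col1a1* measured 4.10, 4.05, 4.84 and 4.41 in the internal and 6.52, 5.67 and 5.54 in the external samples. Every external sample was higher, by a log2 fold change of -1.56 ± 0.28 (internal minus external, adjusted p = 0.000206). *Col1a2* was close to the detection limit, with 11, 7, 21 and 26 reads in 2D and 3, 2, 4 and 6 reads in 3D, at 0.48, 0.26, 1.43 and 1.56 in 2D and -0.68, -1.04, -0.40 and -0.02 in 3D. All 3D samples were below all 2D samples, and the difference of -1.47 ± 0.48 was not called (adjusted p = 0.0574). *Col1a1* RNA thus exceeded *Col1a2* RNA by 4.92 ± 1.61 (SD) on the log2 scale in 2D and by 6.65 ± 0.51 in 3D, and the difference between these within-sample ratios did not pass the test (two-sided exact permutation test, p = 0.0857, adjusted p = 0.314 over 11 ratios). With so few *Col1a2* reads this ratio depends on the prior count.

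*Col11a1*, a chain of type XI collagen, which is known from cartilage and the vitreous body, had fold changes of opposite sign in the 2 comparisons (chr3:114030540-114220718). It measured 3.80, 3.90, 2.81 and 4.58 in 2D and 5.07, 5.33, 5.0 and 4.71 in 3D. The groups did not overlap, but the difference of 1.25 ± 0.32 missed the adjusted threshold of 0.01 (adjusted p = 0.0233). In the regions it measured 4.53, 4.85, 4.95 and 5.70 in the internal and 6.53, 6.32 and 6.66 in the external samples. All external samples were higher (log2 fold change -1.49 ± 0.24, adjusted p = 7.02e-05). The calls of *Col1a1*, *Col11a1* and *Col3a1* between the regions held when any one of the 7 samples was left out and were lost with no variance trend (adjusted p = 0.0200, 0.0185 and 0.0312). The call of *Col3a1* in 3D was lost without the 2D replicate 4 or the 3D replicate 1, 3 or 4, with an adjusted p of at most 0.0183 and a log2 fold change of at least 2.24.

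The other collagens form beaded filaments, networks or links between fibrils. Type VI collagen is built from the products of *Col6a1*, *Col6a2* and *Col6a3*, which join before secretion. *Col6a1* (chr10:76708792-76726168, minus strand) measured 7.17, 7.07, 7.76 and 6.90 in 2D and 7.98, 7.66, 8.36 and 8.30 in 3D. The lowest 3D sample fell just below the highest 2D sample, and the log2 fold change of 0.85 ± 0.21 was not called (adjusted p = 0.0193). It measured 9.46, 9.77, 9.46 and 9.56 in the internal samples, where it was the most abundant collagen RNA of the list, and 8.47, 8.11 and 7.83 in the external samples, where *Col8a1* was above it in each sample. The groups lay well apart (log2 fold change 1.43 ± 0.15, adjusted p = 2.71e-07), and the call held without any one sample.

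*Col6a2* lies 85161 bases from *Col6a1* on the same strand, with no protein-coding gene between them. It measured 6.29, 6.99, 7.32 and 6.22 in 2D against 7.43, 7.73, 7.84 and 7.93 in 3D (log2 fold change 1.03 ± 0.24, adjusted p = 0.0158), and 8.83, 9.01, 8.69 and 8.85 in the internal against 8.22, 8.06 and 8.12 in the external region (0.71 ± 0.13, adjusted p = 0.000352). The groups overlapped in neither data set, and both values were outside the calls, the first by its p and the second by its size. *Col6a3* varied widely among the 2D samples (6.05 to 8.57) and was not called in either comparison (log2 fold change 0.23 and 0.35). The within-sample log2 ratio of *Col6a1* to *Col6a2* was 0.72 ± 0.07 (SD) in the internal and -0.00 ± 0.28 in the external region, and that of *Col6a1* to *Col6a3* was 3.27 ± 0.38 and 2.19 ± 0.40. In both ratios all internal samples were above all external ones, which gives the smallest p that 4 against 3 samples allow in the exact permutation test, 0.0286, and an adjusted p of 0.157 over the 11 ratios. None of the 11 ratios passed an adjusted p of 0.05, and these 2 had an unadjusted p under 0.05.

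*Col8a1*, a short-chain collagen known from the corneal Descemet membrane, had the highest level of the class in the cultures. It measured 8.80, 8.01, 8.21 and 8.52 in 2D and 8.37, 8.42, 8.70 and 8.29 in 3D, with overlapping groups and a log2 fold change of 0.06 (95% interval -0.33 to 0.45). In the regions its log2 fold change was -0.25. *Col16a1* and *Col18a1*, the latter encoding the precursor of endostatin, had log2 fold changes of 0.34 and 0.48 in 3D and of -0.39 and -0.53 in the internal region, none of them called. *Col12a1*, which encodes a collagen on the surface of type I fibrils, had no read in the 2D replicate 3 and measured 1.70 to 4.16 in the other 2D samples and 2.31 to 3.54 in 3D. Its log2 fold change of 1.37 had a 95% interval from -0.90 to 3.64, and it was 0.17 without the 2D replicate 3 and 2.24 without the 2D replicate 4.

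**Figure D2:**
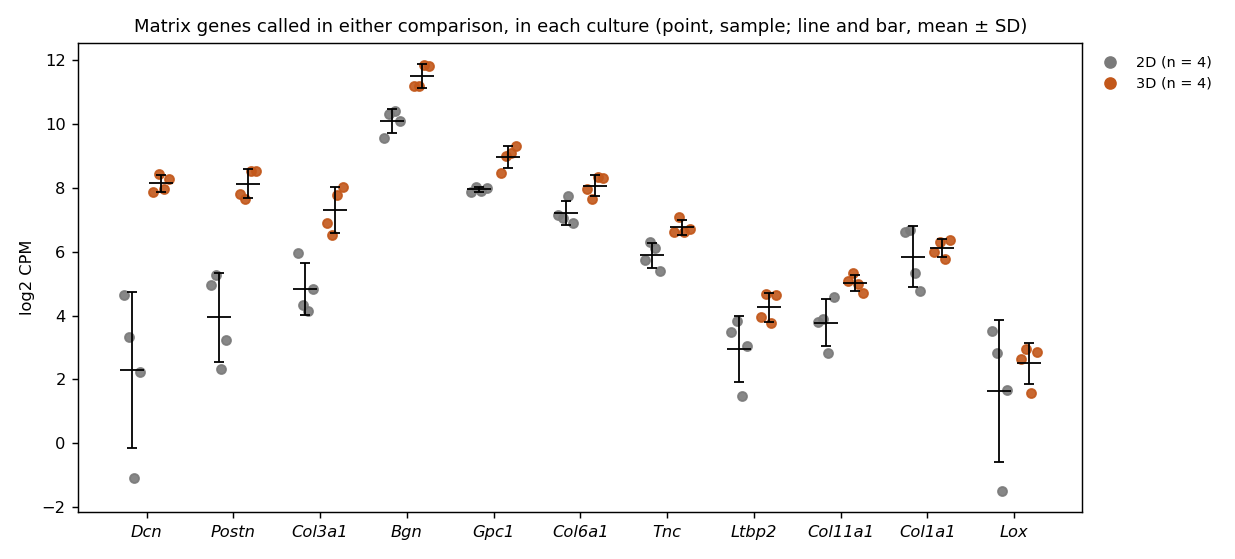
Log2 CPM in each 2D and 3D culture for the 11 genes called in either comparison (points, samples; horizontal line and bar, mean ± SD, n = 4 per group). For *Dcn*, *Postn*, *Col3a1*, *Bgn* and *Gpc1* every 3D sample lies above every 2D sample, and the 2D samples of *Dcn* spread from -1.08 to 4.65.

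Proteoglycans held the largest share of the RNA of these genes in every region sample and in 3D replicates 1, 3 and 4, while adhesive and matricellular proteins did in every 2D sample and in 3D replicate 2. *Bgn*, the gene of biglycan (chrX:73483602-73495933), ranked 48th of all genes in the cultures and 12th in the regions by mean level. It measured 9.57, 10.32, 10.42 and 10.11 log2 CPM in 2D and 11.20, 11.20, 11.85 and 11.82 in 3D. All 3D samples were above all 2D samples, 3D replicates 3 and 4 the most (log2 fold change 1.41 ± 0.23, adjusted p = 0.003). The call was lost without the 3D replicate 3 or 4 (adjusted p = 0.0138 and 0.0149) and with no variance trend in the fit (adjusted p = 0.0101). The region samples measured 12.51, 12.47, 12.22 and 12.54 in the internal and 12.10, 12.27 and 12.21 in the external samples. There the groups overlapped and the difference of 0.24 ± 0.14 was not called (adjusted p = 0.234).

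*Dcn*, the gene of decorin, which lies on chr10:97479609-97518143, had the largest fold change of the 43 members in 3D. It measured 4.65, 3.33, -1.08 and 2.24 in 2D and 7.89, 8.42, 7.97 and 8.29 in 3D. In whole reads these were 238, 72, 2 and 43 in 2D against 1852, 2780, 1935 and 2516 in 3D. The 2D samples thus spread widely while the 3D samples lay close together. The log2 fold change was 5.86 ± 0.93 (adjusted p = 0.00287), and 4.74 ± 0.44 without the 2D replicate 3, which had 2 reads (adjusted p = 0.000619), and 6.65 without the 2D replicate 1. The call was lost without the 2D replicate 4 or the 3D replicate 1, 3 or 4, with an adjusted p of at most 0.0144 and a log2 fold change that stayed at 5.81 or above in these 4 fits. Between the regions *Dcn* measured 7.40, 7.48, 8.01 and 7.51 in the internal and 8.32, 6.72 and 6.72 in the external samples. The external replicate 1 was the highest of all and the other two the lowest, and the log2 fold change of 0.34 was not called (adjusted p = 0.384).

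*Gpc1*, which encodes the heparan sulfate proteoglycan glypican-1 of the cell surface (chr1:92831645-92860779), measured 7.88, 8.02, 7.90 and 8.0 in 2D and 8.47, 9.0, 9.10 and 9.31 in 3D. The 2D samples were nearly equal and all 3D samples were higher (log2 fold change 1.02 ± 0.17, adjusted p = 0.00343). This log2 fold change lay just past the threshold of 1, and the call was lost without the 2D replicate 1 or 3 or the 3D replicate 2, 3 or 4. In the microdissected samples it measured 9.98, 9.99, 9.68 and 10.01 in the internal and 9.05, 9.17 and 9.22 in the external samples, without overlap (0.77 ± 0.13, adjusted p = 0.000123), below the size that a call requires. *Sdc4* and *Sdc1*, genes of the syndecans, which are transmembrane heparan sulfate proteoglycans, had log2 fold changes of 0.74 (adjusted p = 0.0486) and 0.25 in 3D and of 0.00 and 0.36 in the internal region. *Vcan*, the gene of the large hyaluronan-binding proteoglycan versican, measured 5.36, 5.15, 5.81 and 5.22 in 2D and 4.50, 4.77, 4.65 and 4.99 in 3D. It was the only proteoglycan of the list in which all 3D samples lay below all 2D samples, and the difference of -0.66 ± 0.19 was not called (adjusted p = 0.033).

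None of the 9 listed genes of microfibril and elastic fibre proteins was called in 3D by limma or limma-voom, with 5 of them positive and at an unadjusted p under 0.05. *Ltbp1*, which encodes a binding protein of latent TGF-β, had the highest level of the class in the cultures. It measured 9.42, 9.25, 9.46 and 9.06 in 2D and 9.46, 9.44, 9.26 and 9.5 in 3D, with overlapping groups (log2 fold change 0.12, 95% interval -0.17 to 0.40). In 2 genes of the class the adjusted p was under 0.01 and the log2 fold change under 1, *Ltbp3*, another gene of this family, at 0.85 ± 0.14 (adjusted p = 0.00382) and *Adamtsl4*, a fibrillin-binding protein whose loss displaces the lens, at 0.82 ± 0.15 (adjusted p = 0.00477). *Ltbp3* measured 5.54, 5.99, 5.92 and 5.54 in 2D against 6.55, 6.55, 6.70 and 6.58 in 3D. *Adamtsl4* measured 6.04, 5.71, 6.09 and 5.86 in 2D against 7.0, 6.53, 6.74 and 6.69 in 3D. Neither gene overlapped between the cultures.

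The fibrillins form the backbone of microfibrils. *Fbn1* had log2 fold changes of 0.14 in 3D and -0.40 in the internal region, where all external samples (7.62 to 7.68) were above all internal ones (7.15 to 7.36, adjusted p = 0.0469). *Fbn2* had a wide spread in 2D, from -0.76 in replicate 3 to 3.44 in replicate 2, and log2 fold changes of 1.40 (95% interval -0.53 to 3.34) and -0.84. The first was 0.64 without the 2D replicate 3 and 2.04 without the 2D replicate 2. The log2 ratio of *Fbn1* to *Fbn2* was 5.27 ± 2.07 (SD) in 2D and 4.0 ± 0.84 in 3D, and 3.89 ± 0.67 and 3.45 ± 0.36 in the internal and external regions. *Mfap2*, the gene of a small glycoprotein on microfibrils, was near the detection limit in 2D, at 1.67, 1.10, -0.76 and -1.54, and reached 2.7, 2.30, 3.26 and 2.84 in 3D. All 3D samples were higher (log2 fold change 2.66 ± 0.65), with an adjusted p of 0.0188. *Mfap2* was also higher in all internal than in all external samples (1.33, adjusted p = 0.0574), the closest being internal replicate 1, at 2.96, and external replicate 1, at 2.95. Its relative *Mfap5* had log2 fold changes of 0.13 and -0.09.

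*Fbln2*, which encodes fibulin-2, an adaptor between fibrillin and other matrix proteins, had the highest level of the class in the regions, at 9.58, 9.53, 9.45 and 9.47 in the internal and 9.84, 9.72 and 9.81 in the external samples. All external samples were higher by a small amount (-0.28 ± 0.12, adjusted p = 0.103), while in the cultures all 3D samples (8.52 to 9.04) were above all 2D samples (7.83 to 8.44), with a log2 fold change of 0.62 (adjusted p = 0.0301). *Ltbp2* (chr12:84783212-84876532), which in the eye is needed for a stable zonule, was the only gene of the class called between the regions. It measured 3.15, 4.57, 4.15 and 3.28 in the internal and 5.15, 5.43 and 4.70 in the external samples. The groups did not overlap, the closest samples being internal replicate 2 and external replicate 3 (log2 fold change -1.31 ± 0.35, adjusted p = 0.00784). In 3D its log2 fold change was 1.30 ± 0.46, with overlapping groups (adjusted p = 0.0731). Its call between the regions was lost without the internal replicate 1 or 4 or any one external sample, with an adjusted p of up to 0.0711.

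Among adhesive and matricellular proteins, which bind cells or modify how cells meet the matrix, *Postn* was called in both comparisons. It encodes periostin, which binds collagen and is known from fibrotic tissue (chr3:54361109-54391037). It measured 4.96, 5.26, 2.33 and 3.25 in 2D and 7.82, 7.67, 8.54 and 8.52 in 3D. The 3D samples were all higher, replicates 3 and 4 the most, and the log2 fold change was 4.19 ± 0.56 (18.2-fold, adjusted p = 0.00146). In the spheroid regions it measured 8.84, 9.37, 8.85 and 8.90 in the internal and 6.92, 5.96 and 5.88 in the external samples, again without overlap (2.73 ± 0.20, 6.65-fold, adjusted p = 1.37e-09). It was the only member called in every fit with one sample left out, in the cultures (adjusted p at most 0.00903) and in the regions, and it stayed called under each of the other alternatives tried, with a log2 fold change in 3D of 4.78 without both cultures numbered 2.

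*Tnc*, the gene of tenascin-C, a glycoprotein that weakens cell adhesion (chr4:63959785-64047015), also had fold changes of opposite sign. It measured 5.76, 6.30, 6.11 and 5.41 in 2D against 6.62, 7.09, 6.62 and 6.72 in 3D. The 3D samples were all higher (0.87 ± 0.20), which was not called (adjusted p = 0.0149). In the regions it measured 5.33, 4.97, 5.53 and 5.92 in the internal and 6.84, 6.85 and 6.03 in the external samples. The external samples were all higher (-1.14 ± 0.24, adjusted p = 0.00107), and the call was lost without the internal replicate 2 or the external replicate 1 or 2, with an adjusted p of up to 0.0195.

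*Fn1*, the gene of fibronectin, on whose fibrils collagens are laid down, measured 8.40, 8.27, 8.08 and 8.44 in 2D and 8.94, 9.21, 9.36 and 9.46 in 3D. The groups did not overlap, and with a log2 fold change of 0.94 ± 0.14 (adjusted p = 0.00256) it stayed just under the size of a call. Between the regions it overlapped (0.35, adjusted p = 0.115). *Sparc*, the gene of the collagen-binding protein osteonectin, had the highest level of the class, ranking 35th of all genes in the cultures and 54th in the regions. It measured 11.22, 11.58, 11.40 and 11.47 in 2D and 11.16, 11.48, 11.58 and 11.37 in 3D, with a log2 fold change of -0.02 (95% interval -0.35 to 0.31). Its values were 10.40, 10.34, 10.24 and 10.01 in the internal and 10.93, 11 and 11.01 in the external samples. All external samples were higher (-0.73 ± 0.13, adjusted p = 0.000208), below the size of a call. *Thbs1*, which encodes the TGF-β activator thrombospondin-1, ranged from 1.43 to 5.63 in 2D and only from 3.69 to 4.11 in 3D, and its log2 fold change was 1.09 in the internal region (adjusted p = 0.0185).

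None of the 10 crosslinking and processing genes was called in 3D by limma or limma-voom, with 5 of them positive and at an unadjusted p under 0.05. *Serpinh1*, the gene of the collagen chaperone HSP47, was the most abundant of them in the cultures, at 8.83, 9.37, 9.37 and 9.45 in 2D and 9.33, 8.94, 9.34 and 9.62 in 3D (log2 fold change 0.05, 95% interval -0.35 to 0.45). *Pcolce*, which encodes an enhancer of the C-terminal trimming of procollagen, led in the regions, at 9.91, 9.89, 9.76 and 10.16 in the internal and 9.61, 9.62 and 9.90 in the external samples (0.22, adjusted p = 0.258). Both genes overlapped between the groups of both data sets. *Bmp1*, the gene of the C-proteinase that *Pcolce* assists, measured 5.78, 5.96, 5.40 and 6.08 in 2D and 6.58, 6.88, 6.47 and 6.51 in 3D. It did not overlap, and its log2 fold change of 0.81 ± 0.17 had an adjusted p of 0.0102.

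Lysyl oxidases start the covalent crosslinks of collagen and elastin. *Loxl1* measured 6.79, 7.44, 6.75 and 6.57 in 2D and 7.48, 7.73, 8.10 and 7.87 in 3D, with the groups just apart (0.91 ± 0.20, adjusted p = 0.0123), and its log2 fold change was -0.00 between the regions. *Loxl2* measured 0.91 in the 2D replicate 3 and 5.14 to 5.92 in the other 2D samples, so that its log2 fold change of 1.5 in 3D had an interval from -0.46 to 3.46 and was 0.35 without that sample (adjusted p = 0.308). *Loxl3* had log2 fold changes of 0.23 in 3D and of -0.80 ± 0.20 in the internal region, where all external samples were higher (adjusted p = 0.0057). *Lox* was a gene of few reads. It had 4 reads in the internal replicate 1, none in the other 3 internal samples, and 44, 10 and 30 reads in the external samples. The external samples were all higher, and the fitted log2 fold change of -3.76 ± 1.01 (adjusted p = 0.00875) depends on the prior count. Without a prior count the mean level was 0.155 CPM in the internal and 5.57 CPM in the external samples. The call of *Lox* was lost in 6 of the 7 fits with a sample left out, with an adjusted p of up to 0.0812, and with limma-voom on the recovered reads. In the cultures it had 108, 50, 1 and 28 reads in 2D and 47, 61, 21 and 56 in 3D, with overlapping groups.

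Lysyl hydroxylases prepare the lysines that these crosslinks use. *Plod1*, *Plod2* and *Plod3* had log2 fold changes of 0.59, 0.57 and 0.49 in 3D (adjusted p = 0.114, 0.115 and 0.0324) and of 0.44, 0.58 and -0.00 in the internal region (adjusted p = 0.0551, 0.0183 and 0.993). For *Plod3* all 3D samples (7.18 to 7.34) were above all 2D samples (6.43 to 6.94), and for *Plod2* all internal samples (6.42 to 6.84) were above all external ones (5.98 to 6.14). *Plod2* is the one that acts on the telopeptides of collagen. The log2 ratio of *Plod1* to *Plod2* was -0.40 ± 0.91 (SD) in 2D and -0.37 ± 0.38 in 3D, and 1.68 ± 0.17 and 1.82 ± 0.20 in the internal and external regions.

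**Figure D3:**
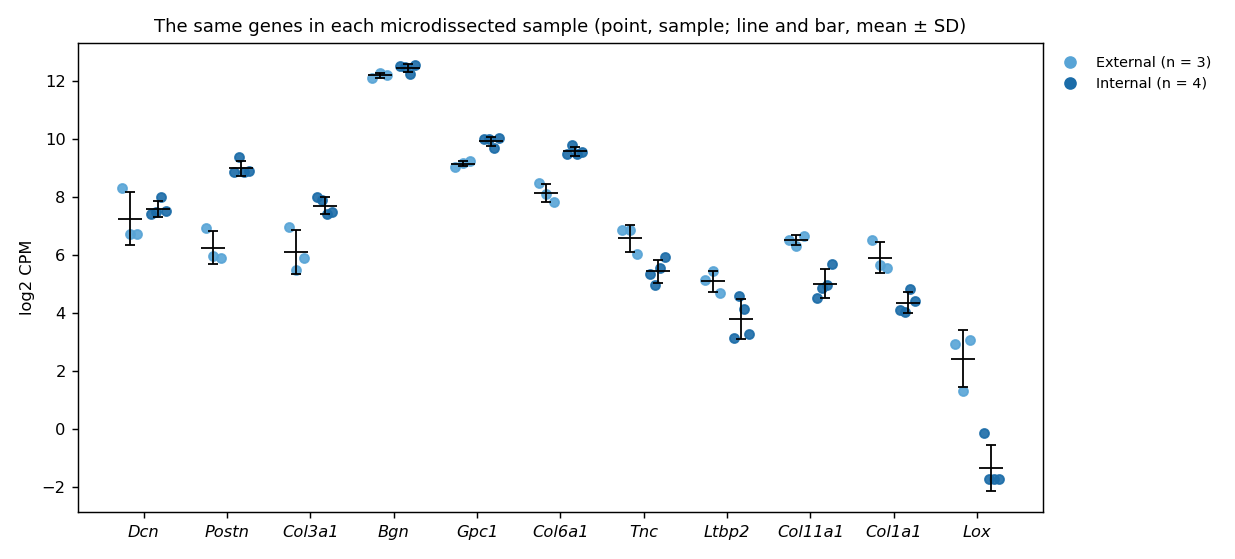
Log2 CPM in each internal and external sample for the same 11 genes (points, samples; horizontal line and bar, mean ± SD, n = 4 internal and 3 external). *Postn*, *Col3a1* and *Col6a1* are higher in every internal sample, and *Col1a1*, *Col11a1*, *Tnc*, *Ltbp2* and *Lox* in every external sample.

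Set side by side, the 2 comparisons share no sample. Of the 42 members in both, 21 had a higher mean in 3D and in the internal region, 18 a higher mean in 3D and in the external region, 1 a lower mean in 3D with a higher mean in the internal region and 2 a lower mean in 3D and in the internal region. Over all 11041 genes in both data sets these shares were 32.0%, 16.3%, 20.6% and 31.0%. *Postn* and *Col3a1* were called higher in 3D and in the internal region, which is 4.76% of the members against 0.951% of all genes in both data sets. No member was called higher in 3D and in the external region, and 0.0543% of all genes were. The 5 genes called higher in the external region had log2 fold changes in 3D of 0.27 (*Col1a1*), 1.25 (*Col11a1*), 1.30 (*Ltbp2*), 0.87 (*Tnc*) and 0.87 (*Lox*), all uncalled. For *Lox* it turned to -0.17 without the 2D replicate 3, and for *Col1a1* to -0.10 without the 2D replicate 4.

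**Figure D4:**
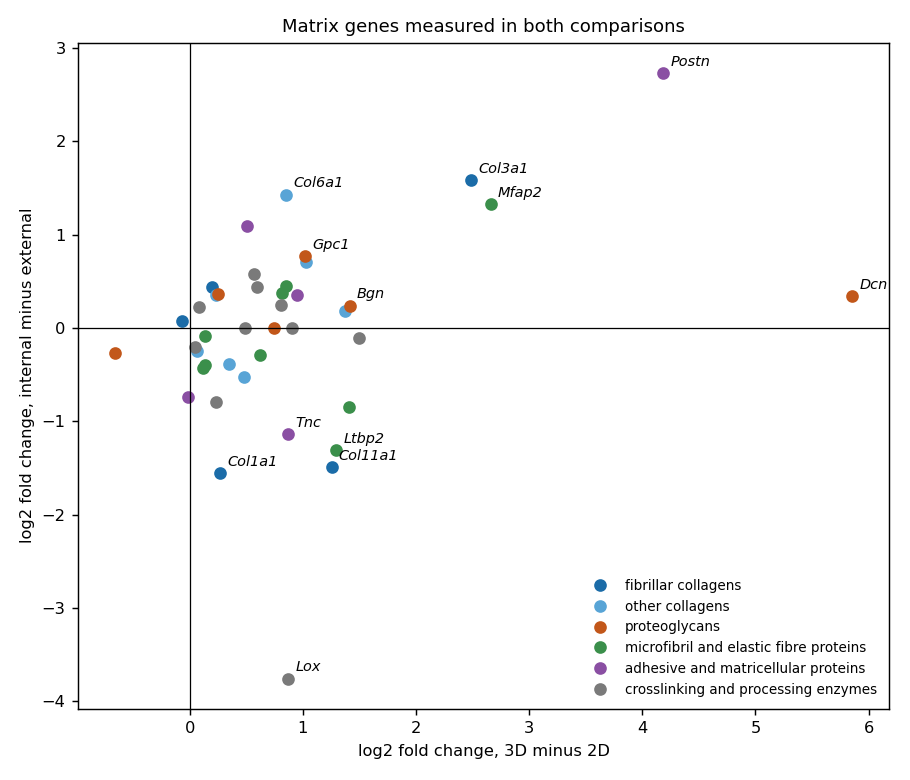
Log2 fold change in 3D minus 2D (horizontal) against internal minus external (vertical) for the 42 genes listed in both data sets, coloured by class, with names for the called genes and *Mfap2*. Points right of 0 divide above and below the horizontal line (21 and 18 genes), with *Postn* and *Col3a1* at the upper right and *Lox* at the bottom.

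Summed over the members, the share of counted reads was 0.927% ± 0.068 (SD, n = 4) in 2D and 1.32% ± 0.16 (n = 4) in 3D. It was 1.62% ± 0.11 (n = 4) in the internal and 1.34% ± 0.078 (n = 3) in the external region. Proteoglycans made up 0.167% ± 0.024 of the reads in 2D and 0.410% ± 0.080 in 3D, fibrillar collagens 0.0368% ± 0.0056 and 0.0536% ± 0.010, the adhesive and matricellular proteins 0.320% ± 0.029 and 0.368% ± 0.042, and the crosslinking and processing enzymes 0.185% ± 0.024 and 0.214% ± 0.021. In the regions the proteoglycans made up 0.717% ± 0.063 of the internal and 0.541% ± 0.020 of the external reads, the adhesive and matricellular proteins 0.278% ± 0.034 and 0.279% ± 0.024, and the collagens other than fibrillar ones 0.177% ± 0.016 and 0.109% ± 0.019. Microfibril and elastic fibre proteins made up 0.148% ± 0.0058 and 0.165% ± 0.011. Most of the proteoglycan reads in every sample were of *Bgn*. Its mean level was 1128 CPM in 2D, 3005 CPM in 3D, 5547 CPM in the internal and 4681 CPM in the external region. *Sparc* likewise gave most reads of the adhesive and matricellular class in the cultures and in the external samples. The sums of these classes thus follow single genes to a large part, and no sum was tested.

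**Figure D5:**
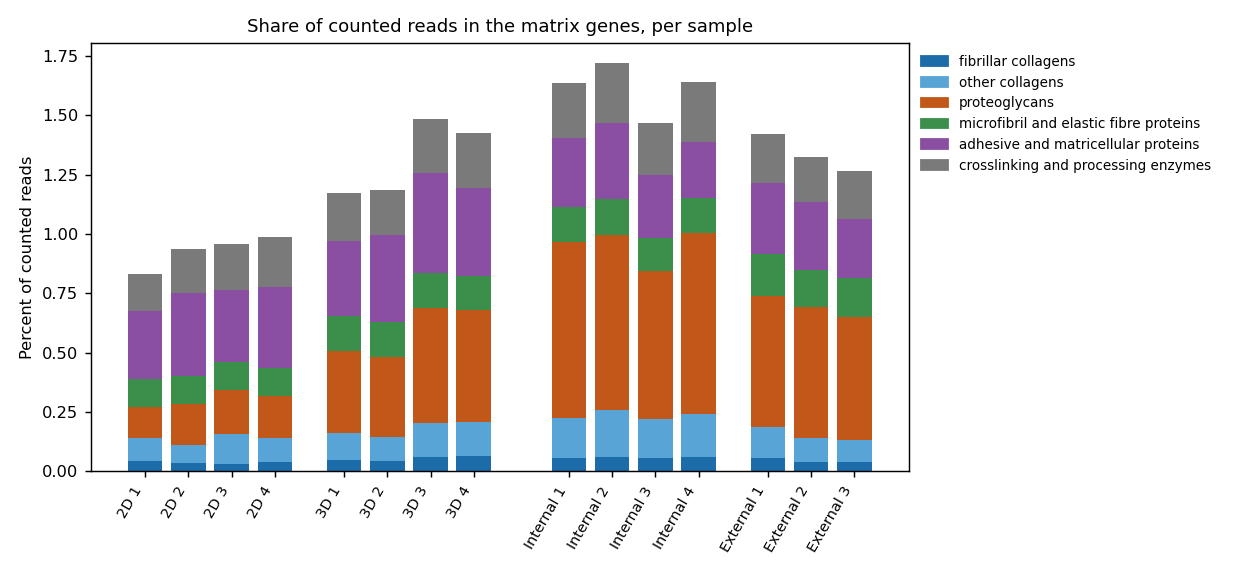
Percent of counted reads that fell in the member genes in each of the 15 samples, stacked by class. All 3D samples, at 1.17% to 1.49%, are above all 2D samples, at 0.830% to 0.987%, and proteoglycans are the largest part of the bars in both regions.

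Other genes of the same processes were taken from 6 further lists. The members and these lists were chosen with earlier results of these data known. Their shares beside those of all genes are therefore descriptions and not tests. Of 11 further proteoglycan and hyaluronan genes in the cultures, 4 were called higher in 3D (36.4%, against 2.92% of all genes), and the median log2 fold change was 1.54. They were *Podn* (log2 fold change 3.69 ± 0.59), *Prelp* (1.54 ± 0.21), *Aspn* and, named after its value was seen, *Sdc2* (1.32 ± 0.17). *Podn*, *Prelp* and *Aspn* encode small leucine-rich proteoglycans like decorin and biglycan. *Aspn* had no read in any 2D sample and 42, 28, 36 and 35 reads in the 3D samples, at least 12.5-fold higher against 3 reads per 2D sample. Of 4 further collagen chains, 2 (50%) were called higher in 3D, *Col5a3* (2.81 ± 0.58) and *Col27a1* (2.09 ± 0.23). Of 25 further microfibril, elastic fibre and matricellular genes, 4 (16%) were called higher, *Matn2* (1.96 ± 0.33), *Tgfbi* (1.90 ± 0.19), *Thbs3* (1.54 ± 0.22) and, named after its value was seen, *Emilin1* (1.43 ± 0.16). Of 22 further enzymes and regulators of collagen folding, modification and trimming, 2 (9.09%) were called higher: *Creb3l1* (2.96 ± 0.56), a transcription factor of the secretory pathway that acts on collagen genes, and *Adamts2* (1.55 ± 0.26), an N-proteinase of procollagen. Of 10 receptor genes, *Itga11* (2.62 ± 0.47) and *Ddr1* (1.03 ± 0.15), both collagen receptors, were called higher (20%). Of 26 genes of glycosaminoglycan chain synthesis, *Ust* was called higher (1.31 ± 0.18) and *Csgalnact1* lower (-1.05 ± 0.22), each 3.85% of the list, near the 2.92% and 1.51% of all genes. Of these 16 calls in the cultures, 7 held in every fit with one sample left out and under each other alternative that kept the gene (*Col27a1*, *Emilin1*, *Tgfbi*, *Aspn*, *Prelp*, *Sdc2* and *Ust*). That of *Csgalnact1* was lost in 7 of 8 fits with one sample left out, with the replicate block, with no variance trend, with 1 CPM added, with median centring and with limma-voom. Those of *Creb3l1*, *Col5a3* and *Itga11* were lost in 6, 5 and 4 of these 8 fits, those of *Adamts2*, *Matn2* and *Ddr1* in 3 each, that of *Podn* in 2 and that of *Thbs3* in 1, and each of them was lost without 3D replicate 3.

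Between the regions, 6 of 25 further microfibril, elastic fibre and matricellular genes were called higher in the internal region (24%, against 3.27% of all genes), led by *Sparcl1*, the relative of *Sparc* (4.07 ± 0.32), *Smoc2* (3.14 ± 0.49) and *Tnxb* (2.89 ± 0.77). *Ccn1* was called higher in the external region (-2.19 ± 0.59), which is 4% of the list against 4.35% of all genes. Of 21 further folding, modifying and trimming genes, the procollagen N-proteinase *Adamts2* (1.89 ± 0.38) and the prolyl hydroxylase *P3h2* (1.27 ± 0.20) were called higher in the internal region, while *Adamts14*, another N-proteinase (-2.56 ± 0.40), and *Pcolce2* (-2.18 ± 0.45) were called higher in the external region (9.52% of the list each way). *Podn* (1.34 ± 0.28) was the only one of 11 further proteoglycan and hyaluronan genes to be called (9.09%). Of 10 receptor genes, *Itga2* (3.54 ± 0.83) and *Ddr1* (1.11 ± 0.18) were called higher in the internal (20%) and *Itga10* (-1.57 ± 0.36) in the external region (10%). None of 7 further collagen chains and none of 27 genes of glycosaminoglycan chain synthesis were called by limma, with 2 and 9 of them at an unadjusted p under 0.05. Of these 15 calls between the regions, 3 held in every fit with one sample left out and under each other alternative (*Sparcl1*, *Adamts14* and, named after its values were seen, *Adamtsl5*). With the replicate block 7 were lost, *Ccn1*, *Tnxb*, *Itga2*, *Itga10*, *Adamts2*, *Podn* and *Matn2*, and with no variance trend 11 were, and limma-voom lost *Smoc2*, *Tnxb*, *Itga2* and *Adamts2*. Of the 7 fits with one sample left out, *Ccn1* lost its call in 6 (adjusted p up to 0.072), *Tnxb* in 5 (up to 0.0541), *Itga2* and *Matn2* in 4, *Itga10* and *Podn* in 2 and *Pcolce2* in 1. Across these fits the log2 fold change ranged from -2.83 to -1.33 for *Ccn1* and from 2.04 to 3.50 for *Tnxb*.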

How the data were processed

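Libraries of 21EM15 cells were made with a QuantSeq 3′ kit, strand-specific. The authors kept sense reads, mapped them on GRCm38.p6 by STAR 2.7.8a, let featureCounts 1.6.0 count those with a single location, removed genes of low CPM and tested with edgeR. The annotation release is not given in the sources used here. The authors deposited log2 CPM values, one column per sample, to which a prior count had been added, scaled within each of 2 data sets (cultures and regions). Their fold changes and p-values were not used.

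Whole reads were recovered from the spacing of the log2 values (100.0% of values, tolerance 0.05 read). The prior averaged 1.98 reads in the cultures and 1.73 in the regions. Floors of 3 reads cover counting error only, since PCR copies cannot be told apart.

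Fits were made with limma 3.58.1 in R 4.3.3 on the deposited log2 values (empirical Bayes with a variance trend, two-sided, Benjamini-Hochberg over all genes of a data set, no further filter). A gene was called where its adjusted p was below 0.01 and its log2 fold change exceeded 1 in either direction. Values after ± are limma's SE for differences and the SD for levels, ratios and shares. Ratios were tested by two-sided exact permutation with Benjamini-Hochberg over 11 ratios. One further ratio could not be made, as *Col1a2* was not listed for the regions. The other steps used matplotlib 3.10.9 for figures and pandas 2.3.3, scipy 1.17.1 and numpy 2.4.6 for tables and tests, under Python 3.11.15. The fits were also run on simulated counts with a fixed dispersion and large changes in well-counted genes. That run does not bear on calls near the thresholds or on genes of few reads.

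Samples were grouped by their labels. Each culture replicate was its own dish or pool of spheroids, which does not say that cultures were independent. Whether internal and external samples of one number came from the same pool is not stated in the sources. The p-values thus measure the spread between these samples. Replicate numbers were not taken as pairs. The members and the further lists were chosen with earlier results of these data known. All members are named. The value of every sample is given for genes in the comparison in which they were called (as reads for *Lox*) and for the highest gene of each class in a data set. Of each further list, up to 3 called genes per direction with the largest fold change are named. Per-sample values of other members were added after they were seen.

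Gene positions are those of GENCODE vM21, which held all 43 members. Upstream sequences are from RefSeq on GRCm38.p6. Where a gene had several entries, the one nearest to a principal GENCODE start was taken. No member overlapped another gene on its strand in its last 500 bases. Stretches of 50 bases in the last 300 bases of the transcripts were shared with other genes in 7 of 43 members (*Adamtsl4*, *Fn1*, *Loxl2*, *Ltbp1*, *Plod3*, *Sdc1* and *Sparc*), none of them called, and reads in such stretches may have been lost.

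The alternatives were the replicate number as a block, no fold change threshold, no variance trend, an adjusted p of 0.05, a robust prior, a minimum mean of 1 log2 CPM, 1 CPM added, median centring, limma-voom on the recovered reads and leaving out each sample. Leaving out both cultures numbered 2 was added after the data were seen.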

Additional observations from a re-analysis of the deposited data

Results flagged for a closer look

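Of 128 groups of 4 samples, 1 for each member and group, 11 (8.59%) held a sample that lay further from the other three than the range among them allows at the 95% critical value of Dixon. Chance flags about 1 in 20 such groups. The groups of 3 external samples were not examined. All values are log2 CPM.

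In the cultures, *Loxl2* measured 0.91 in 2D replicate 3 (5.14 to 5.92 in replicates 1, 2 and 4) and *Serpinh1* 8.83 in 2D replicate 1 (9.37 to 9.45 in the others). In 3D replicate 2, *Col5a2* (5.68 against 6.24 to 6.34) and *Loxl3* (6.80 against 7.60 to 7.72) were the lowest of their group. *Sdc1* was highest in 3D replicate 1 (6.03 against 5.84 to 5.87).

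In the internal region, replicate 3 was highest for *Dcn* (8.01 against 7.40 to 7.51) and for *Adamtsl4* (6.83 against 6.15 to 6.22), and lowest for *Gpc1* (9.68 against 9.98 to 10.01). *Postn* was highest in replicate 2 (9.37 against 8.84 to 8.90) and *Fbn2* lowest in replicate 1 (2.31 against 3.61 to 3.74). *Lox* measured -0.15 in replicate 1, from 4 reads, against -1.72 in the other internal samples, which had none. Of these genes, *Postn* and *Lox* were called between the regions. The call of *Postn* held without internal replicate 2, and that of *Lox* held without internal replicate 1 (adjusted p = 0.00865).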

How the results depend on the processing

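Of the 5 members called higher in 3D, 1 (*Postn*) stayed called with no variance trend and 3 with a robust prior, which lost *Col3a1* and *Dcn*. With an adjusted p of 0.05 the number was 8, with no fold change threshold it was 8, and leaving out one sample gave 1 to 7. It was lowest without 3D replicate 3 or 4. The number called higher in the internal region was 5 with no fold change threshold, 2 with no variance trend, which lost *Col3a1* (adjusted p = 0.0312), and 3 without any one sample. Of the 5 called higher in the external region, 1 (*Lox*) stayed with no variance trend, and leaving out one sample left 2 to 4. No called member changed sign under any alternative in the comparison in which it was called. Of 1444 member values under an alternative, 1380 kept their side of the threshold, 44 lost a call and 20 gained one. Leaving out both cultures numbered 2 gave 6 called higher in 3D. With the replicate number as a block, 6 members were called higher in 3D, 3 higher in the internal region (the same 3) and 3 higher in the external region, where *Ltbp2* and *Lox* were lost. Deviations of same-numbered cultures correlated at 0.227, 0.503, 0.066 and 0.0052, and those of same-numbered regions at -0.044, -0.065 and -0.063, and not every sample correlated best with its own number, so the numbers were not taken as pairs. The cause of these changes was not tested. *Lox*, *Col1a2* and *Mfap2* were measured near the limit of depth, and 3 samples limit every statement on the external region.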
